A study of Mus musculus with 12 samples.

Results

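The 10 genes described here are read as markers of how mature pancreatic beta cells are: Ucn3, which marks mature beta cells; Neurog3, Sox9, Aldh1a3 and Gast, which are reported in immature or dedifferentiated cells; and Slc16a1, Ldha, Rest, Cd81 and Oat, which mature beta cells keep low. They were taken by symbol from the table of counts per gene, in which all 10 are found among 55536 genes, and all 10 passed the filter on low counts that left 19800 genes to test. The study compared islets of control mice with islets of mice that lack Ptpn2 in beta cells (bKO), untreated or after 24 h with 3 cytokines, interferon gamma (IFN-gamma), TNF-alpha and IL-1beta. PTPN2 is a tyrosine phosphatase that dampens JAK-STAT signalling below the interferon and other cytokine receptors. The controls are PTPN2 +/+ in the titles and fl/fl in the genotype label, and the others are PTPN2 -/- in the titles and Ptpn2-bKO in the protocols, which is read here as a beta cell knockout. All mice were 16 weeks old, on a mixed C57BL/6J background. No source used here names the Cre line or the floxed exon. There are 3 libraries in each of the 4 groups. Per the labels' protocols 3 mice of each genotype gave islets, so some libraries share a mouse, and which ones do is not stated. P-values treat the libraries as independent and may measure in part a technical spread.

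Libraries held 47064061 to 107515565 counts. Ptpn2 itself was at 31.1 ± 0.632 CPM (counts of a gene scaled to the same library size in every library; mean ± SD, n = 3) in untreated control islets and 35.3 ± 1.47 in untreated islets labelled bKO, and at 85.9 ± 6.61 and 100.6 ± 14.3 after cytokines. It was therefore not lower under the bKO label (adjusted p = 0.989 untreated and 0.26 with cytokines, edgeR quasi-likelihood test). Counts over the whole gene do not test whether an exon was removed, and the genotype is used below as a label. Treated bKO library 2 stood apart from its group: 8.13% of 14653 genes with enough counts were more than 2-fold from the mean of the other 2 libraries of the group. The share was 2.96% for treated bKO library 1, 2.67% for treated control library 2, and 0.471% to 1.36% for the remaining libraries. Many results below are given with and without treated bKO library 2 and treated control library 2, a setting chosen after seeing the data. Some lists are given without treated bKO library 2 alone, or with all libraries only. Treated bKO library 1 was left out only in the fits that left out 1 library.

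Beta cells acquire glucose-stimulated insulin secretion after birth, when they switch on genes such as Ucn3 and Mafa and switch off metabolic genes that most other tissues use. The genes switched off include the lactate dehydrogenase Ldha and the plasma membrane lactate and pyruvate carrier Slc16a1 (MCT1), whose absence keeps beta cells from secreting insulin in response to circulating pyruvate. Under metabolic or inflammatory stress, beta cells can lose mature markers and regain progenitor or otherwise silenced genes, a change called dedifferentiation.

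Per kilobase of exon, the untreated control islets held Ucn3 at the highest level of the 10 genes, 149.8 ± 9.39 CPM per kb (SD, n = 3). Cd81 followed at 49.6 ± 1.09 and Ldha at 45.5 ± 9.35, and the ranges of these 2 genes overlapped. Oat at 12.8 ± 1.43 and Sox9 at 9.73 ± 1.04 came next, then Aldh1a3 at 5.41 ± 0.365 and Neurog3 at 4.96 ± 0.591, which overlapped each other. Rest stood at 2.59 ± 0.24, Slc16a1 at 1.51 ± 0.0891 and Gast at 0.48 ± 0.0383. With cytokines the order changed at the top: Ldha came first, at 89.9 ± 25.4 CPM per kb in control islets and 121.1 ± 42.2 in islets labelled bKO. Cd81 came next, at 48.4 ± 7.77 and 66.5 ± 24.9, and its range overlapped that of Ldha in the islets labelled bKO. Ucn3 was the third in treated control islets, at 14.3 ± 2.21, with a range that overlapped that of Oat. It was the sixth in treated islets labelled bKO, at 6.16 ± 1.68, with a range that overlapped those of Aldh1a3 above it and Rest below it. Neurog3 went from the seventh place in untreated islets to the last, at 0.293 ± 0.0992 CPM per kb in treated control islets and 0.271 ± 0.0692 in treated islets labelled bKO, where it overlapped Gast.

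Cytokines lowered Ucn3 and Neurog3 and raised Slc16a1 and Ldha in control islets. In islets labelled bKO the same 4 genes moved in the same directions and Rest also rose. In edgeR's quasi-likelihood test, with p-values adjusted by Benjamini and Hochberg's method over all tested genes, 2 of the 10 genes rose and 2 fell in control islets. Of all genes tested, 26.8% rose and 33.9% fell, 60.6% in all. In islets labelled bKO 3 of the 10 genes rose and 2 fell, where 28.8% of all genes rose and 33.6% fell, 62.4% in all. The share of the 10 genes that changed was thus not above that of all genes. In control islets the treated and untreated libraries did not overlap for the same 2 risers and 2 fallers. Over all genes the groups did not overlap for 70.5%, with 30.5% higher and 40% lower. In islets labelled bKO they did not overlap for 3 genes that were higher and 2 that were lower, and for 65% of all genes, 29.8% higher and 35.3% lower. The median log2 fold change of the 10 genes was -0.02 in control islets and 0.41 in islets labelled bKO, and that of all genes -0.10 and -0.06. The median of the 10 genes joins genes that go in opposite directions by their known roles.

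**Figure D1:**
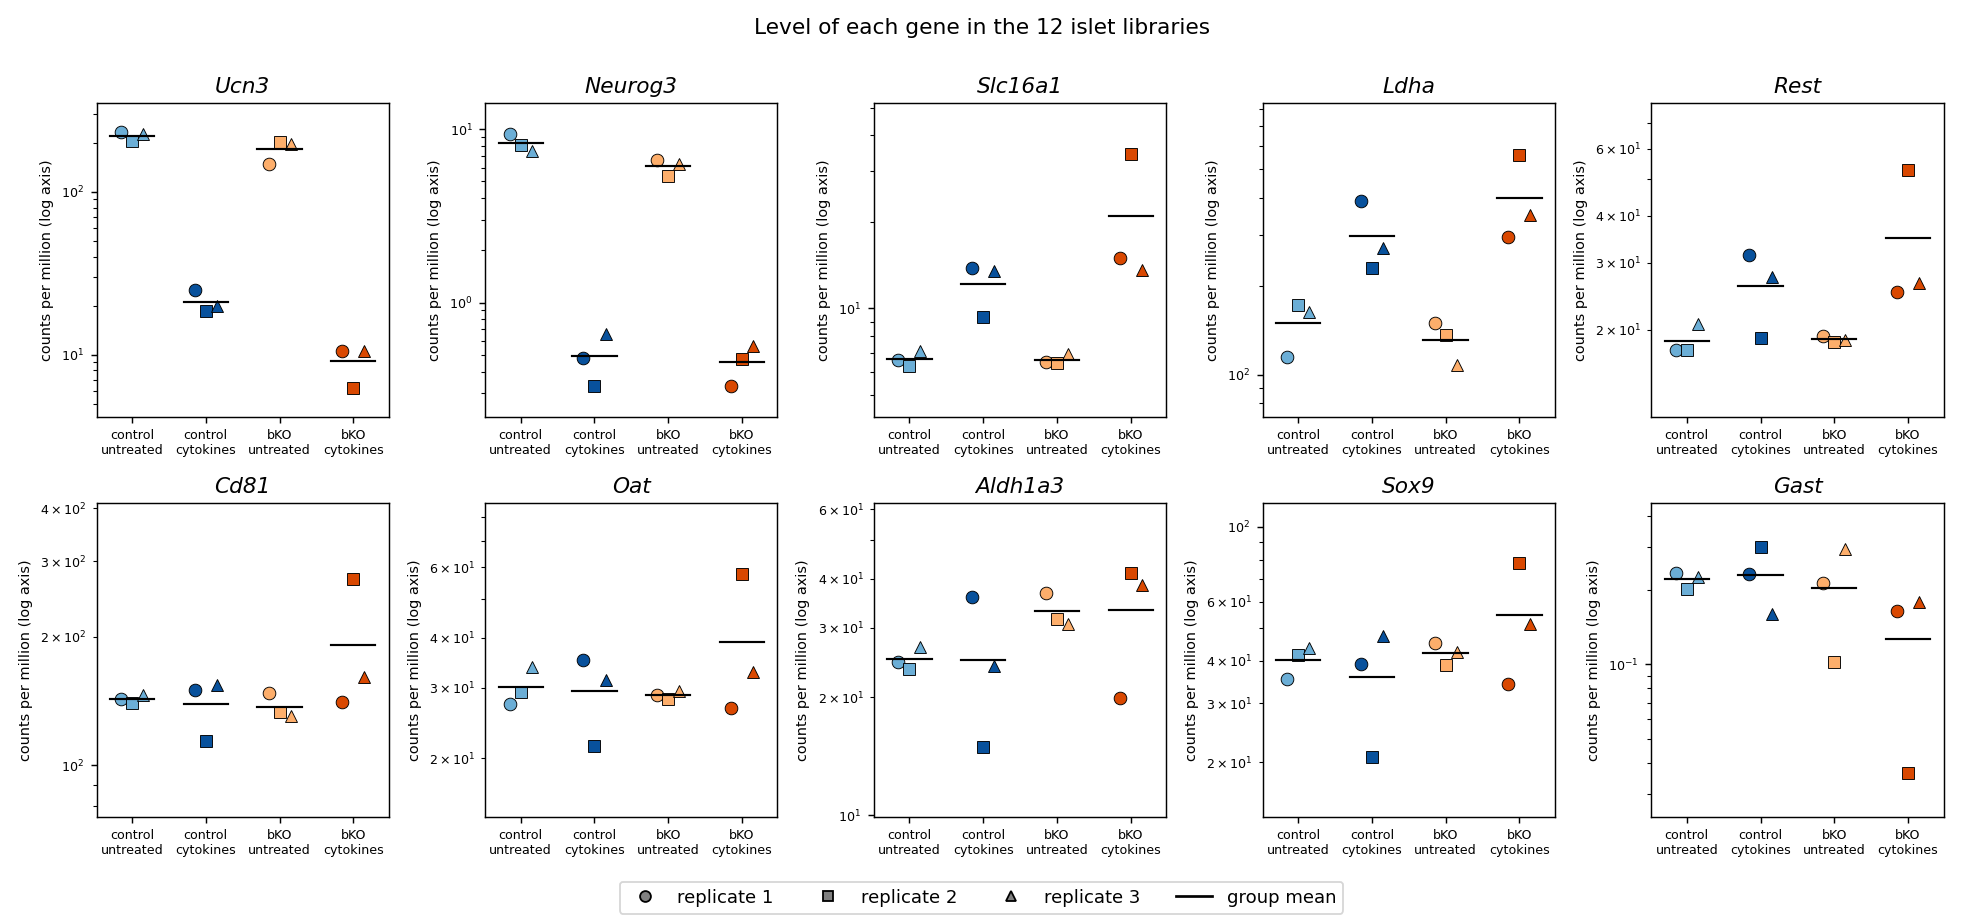
Level of each of the 10 genes in every library, in CPM on a log axis. Symbols mark the replicate number and horizontal lines the group mean; Ucn3 and Neurog3 fall with cytokines in both genotypes without overlap, and the square of the treated islets labelled bKO lies above the other libraries for Slc16a1, Ldha, Rest, Cd81, Oat, Aldh1a3 and Sox9.

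Ucn3 encodes urocortin 3, a peptide that mature mouse beta cells release with insulin and that acts on the receptor Crhr2 of delta cells to raise somatostatin release. The gene lies on chromosome 13, from 3940688 to 3945349 on the minus strand (GRCm38, GENCODE M21), with 1478 bases of exon. Untreated control islets held 232.9, 206.0 and 225.4 CPM of Ucn3, and treated control islets 24.8, 18.6 and 19.9. Untreated islets labelled bKO held 149.1, 203.3 and 198.0, and treated ones 10.5, 6.23 and 10.6. Every treated library lay far below every untreated library, and the 3 treated libraries labelled bKO lay below the 3 treated control libraries. Cytokines lowered Ucn3 10.5-fold in control islets (log2 fold change -3.39, SE 0.202, adjusted p = 1.01e-07, edgeR) and 20.2-fold in islets labelled bKO (-4.34, SE 0.213, adjusted p = 2.02e-08). Here and below the SE is the size of the log2 fold change divided by the square root of the F statistic. In these whole islets, fewer cells of a type and less RNA per cell cannot be told apart. The summed level of 7 beta cell markers was not lower beside it in treated control islets, where it ranged from 144400 to 177400 CPM, against 123700 to 135400 in untreated ones. In islets labelled bKO it ranged from 123500 to 134600 CPM untreated, and was 162300, 89990 and 147500 after cytokines, with treated bKO library 2 the lowest of all. Most of this sum came from 3 hormone genes, Ins1, Ins2 and Iapp, at means of 40980, 76070 and 10000 CPM in untreated control islets. The sum therefore says little of the other 4 markers. Of the 7 markers, 4 fell in control islets and 4 in islets labelled bKO, in each case Pdx1, Mafa, Slc2a2 and Nkx6-1. None of the 7 was at 0 in any library.

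Ucn3 was also the only member of the 10 that differed between genotypes. In the presence of cytokines it was 2.33-fold lower in islets labelled bKO than in control islets (log2 fold change -1.22, SE 0.194, adjusted p = 0.0334, edgeR). Without treated bKO library 2 and treated control library 2 the value was -1.08 (SE 0.158, adjusted p = 0.0145), in the same direction and past the threshold. The direction held in all 22 alternative fits, but the call was lost in 12 of them. It was lost when the fit used the compared groups alone (-1.20, adjusted p = 0.385) and in 10 of the 12 fits that left out 1 library, with adjusted p from 0.0559 to 0.138. It held without treated bKO library 1 (0.0274) or 2 (0.0172). In untreated islets Ucn3 was lower under the bKO label by 0.27 on the log2 scale (SE 0.183, adjusted p = 1, edgeR), and the 3 libraries lay below the 3 control libraries by a narrow margin. The loss with cytokines was 0.95 log2 units larger in islets labelled bKO (SE 0.266). That difference in response did not pass the adjustment (unadjusted p = 0.0041, adjusted p = 0.312).

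The 250 bases before the RefSeq start of Ucn3 are shown because no other member differed between genotypes; they lie at chr13:3945350-3945599 on the minus strand (GRCm38.p6). Capitals mark the E-box CANNTG, the general motif of basic helix-loop-helix factors such as Neurod1, searched on both strands and present in 66.2% of 32851 RefSeq windows of the same length. The window holds 2 matches.
Ucn3: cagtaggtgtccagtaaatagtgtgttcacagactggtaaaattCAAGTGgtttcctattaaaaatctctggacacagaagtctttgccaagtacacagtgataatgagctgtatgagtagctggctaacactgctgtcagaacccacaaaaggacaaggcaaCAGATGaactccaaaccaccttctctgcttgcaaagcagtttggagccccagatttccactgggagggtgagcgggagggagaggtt

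Neurog3 encodes neurogenin 3, the basic helix-loop-helix factor that commits pancreatic progenitors to the endocrine fate; adult islets transcribe it at a low level. The gene lies on chromosome 10, from 62133090 to 62134763 on the plus strand. Untreated control islets held 9.38, 8.06 and 7.45 CPM of Neurog3, and treated ones 0.481, 0.33 and 0.662. Untreated islets labelled bKO held 6.64, 5.40 and 6.31, and treated ones 0.329, 0.472 and 0.559. The treated values rest on 14 to 33 counts per library, against 370 to 624 in untreated libraries, and no treated library came near an untreated one. Cytokines lowered Neurog3 17.3-fold in control islets (log2 fold change -4.12, SE 0.247, adjusted p = 1.07e-07, edgeR) and 13.4-fold in islets labelled bKO (-3.74, SE 0.251, adjusted p = 2.35e-07). Neurog3 thus fell with the cytokines, as Ucn3 did. In untreated islets the fitted Neurog3 level of the bKO libraries lay below that of the control libraries by 0.44 on the log2 scale (SE 0.205), a difference that did not pass the test (unadjusted p = 0.055, adjusted p = 0.918, edgeR). With cytokines the genotypes overlapped (-0.07, SE 0.273, adjusted p = 0.916). Neurog3 shares 273 exonic bases with Fam241b on the other strand, and no source used here gives the strand setting of the counting. Fam241b, named after its values were seen, changed by -0.40 and -0.20 log2 units with cytokines, far less than Neurog3.

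The 250 bases before Neurog3 are shown because it fell with Ucn3; they lie at chr10:62132840-62133089 on the plus strand (GRCm38.p6, RefSeq). Capitals mark its only E-box, which has the centre CAGCTG, a palindrome found in 13% of all RefSeq windows of this length.
Neurog3: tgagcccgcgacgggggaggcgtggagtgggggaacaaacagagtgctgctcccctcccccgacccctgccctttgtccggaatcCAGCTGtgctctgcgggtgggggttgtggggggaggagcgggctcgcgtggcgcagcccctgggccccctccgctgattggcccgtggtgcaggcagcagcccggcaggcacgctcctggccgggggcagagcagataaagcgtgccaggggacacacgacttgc

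Other genes of the mature beta cell fell with Ucn3. Of 14 tested maturity genes 13 fell and none rose in control islets, with a median log2 fold change of -1.60 against -0.10 over all genes. All 14 fell in islets labelled bKO, with a median of -1.87 against -0.06. Of all genes, 33.9% fell in control islets and 33.6% in islets labelled bKO. Mafa, Pdx1, Nkx6-1 and Slc2a2 stand both in this list and among the falling beta cell markers above, so the 2 counts overlap. This list and those below were chosen with earlier results of these data known, so their counts are no independent support. Markers of other cell types fell as well. In control islets 8 of 8 endothelial (median -2.03 log2 units), 6 of 6 alpha (-1.66), 4 of 4 delta (-1.39) and 7 of 9 acinar markers (-2.25) fell. In islets labelled bKO 8, 6, 3 and 3 fell. Of 8 macrophage markers 7 rose in each genotype, and duct and stellate markers went both ways in control islets. A fall was thus not particular to genes of the mature beta cell. Mafa, the transcription factor of late beta cell maturation, went from 468.3 to 30.0 CPM in control islets (log2 fold change -3.96, SE 0.282) and from 309.8 to 18.7 in islets labelled bKO (-4.05, SE 0.285). Pdx1, which activates insulin and many beta cell genes, fell by 2.65 and 2.85 log2 units, and Glp1r, the receptor for the incretin GLP-1, by 2.30 and 2.70. G6pc2, an islet glucose-6-phosphatase subunit, fell from 1029 to 229.5 CPM in control islets and from 909.7 to 108.7 in islets labelled bKO. It was the only maturity gene besides Ucn3 that passed the test between treated genotypes, lower by 1.08 log2 units under the bKO label (SE 0.171, adjusted p = 0.0334, edgeR). The direction of G6pc2 held in all 22 alternative fits, and the call was lost in 12 of them, among them the fit of the compared groups alone (adjusted p = 0.362) and 10 of the 12 fits that left out 1 library (0.0551 to 0.133), all but those without treated bKO library 1 or 2. The median of the 14 genes in that comparison was -0.68 log2 units, against 0.01 over all genes, and -0.49 without treated bKO library 2 and treated control library 2.

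Genes known from progenitors or immature beta cells did not move as a group. Of 15 tested, 3 rose and 7 fell in control islets, and 4 rose and 4 fell in islets labelled bKO. Of all genes, 26.8% rose and 33.9% fell in control islets, and 28.8% rose and 33.6% fell in islets labelled bKO. Without treated bKO library 2 alone, 4 of the 15 rose and 7 fell in control islets, and 5 rose and 6 fell in islets labelled bKO. Fev, a transcription factor of endocrine progenitors and of serotonin neurons, fell most: from 6.57 to 0.382 CPM in control islets and from 6.36 to 0.34 in islets labelled bKO, a log2 change of -4.12 and -4.22. The summed level of 6 alpha cell markers was 15510 to 22850 CPM in untreated and 6283 to 11110 in treated libraries. All 6 fell in each genotype, none was at 0, and their part in the list's values was not tested. Jag1, a Notch ligand, fell by 1.10 and 1.02. The growth regulator Myc rose in both genotypes, from 23.9 to 43.7 CPM in control islets and from 26.9 to 49.6 in islets labelled bKO, as did its relative Mycl (0.95 and 0.92 log2 units). Cck, the peptide hormone gene related to Gast, rose by 1.09 and 1.52 from below 0.4 CPM. Npy, a peptide of immature beta cells, was 1.05 log2 units higher under the bKO label with cytokines (adjusted p = 0.0334, edgeR), at 7.07 against 3.41 CPM; untreated islets held 8.11 and 5.21 CPM. The Npy call was lost in 12 of 22 alternative fits, with the direction kept, among them that of the compared groups alone (adjusted p = 0.362) and 10 of the 12 fits without 1 library (0.0551 to 0.138), again all but those without treated bKO library 1 or 2. Mycl was named after its values were seen.

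**Figure D2:**
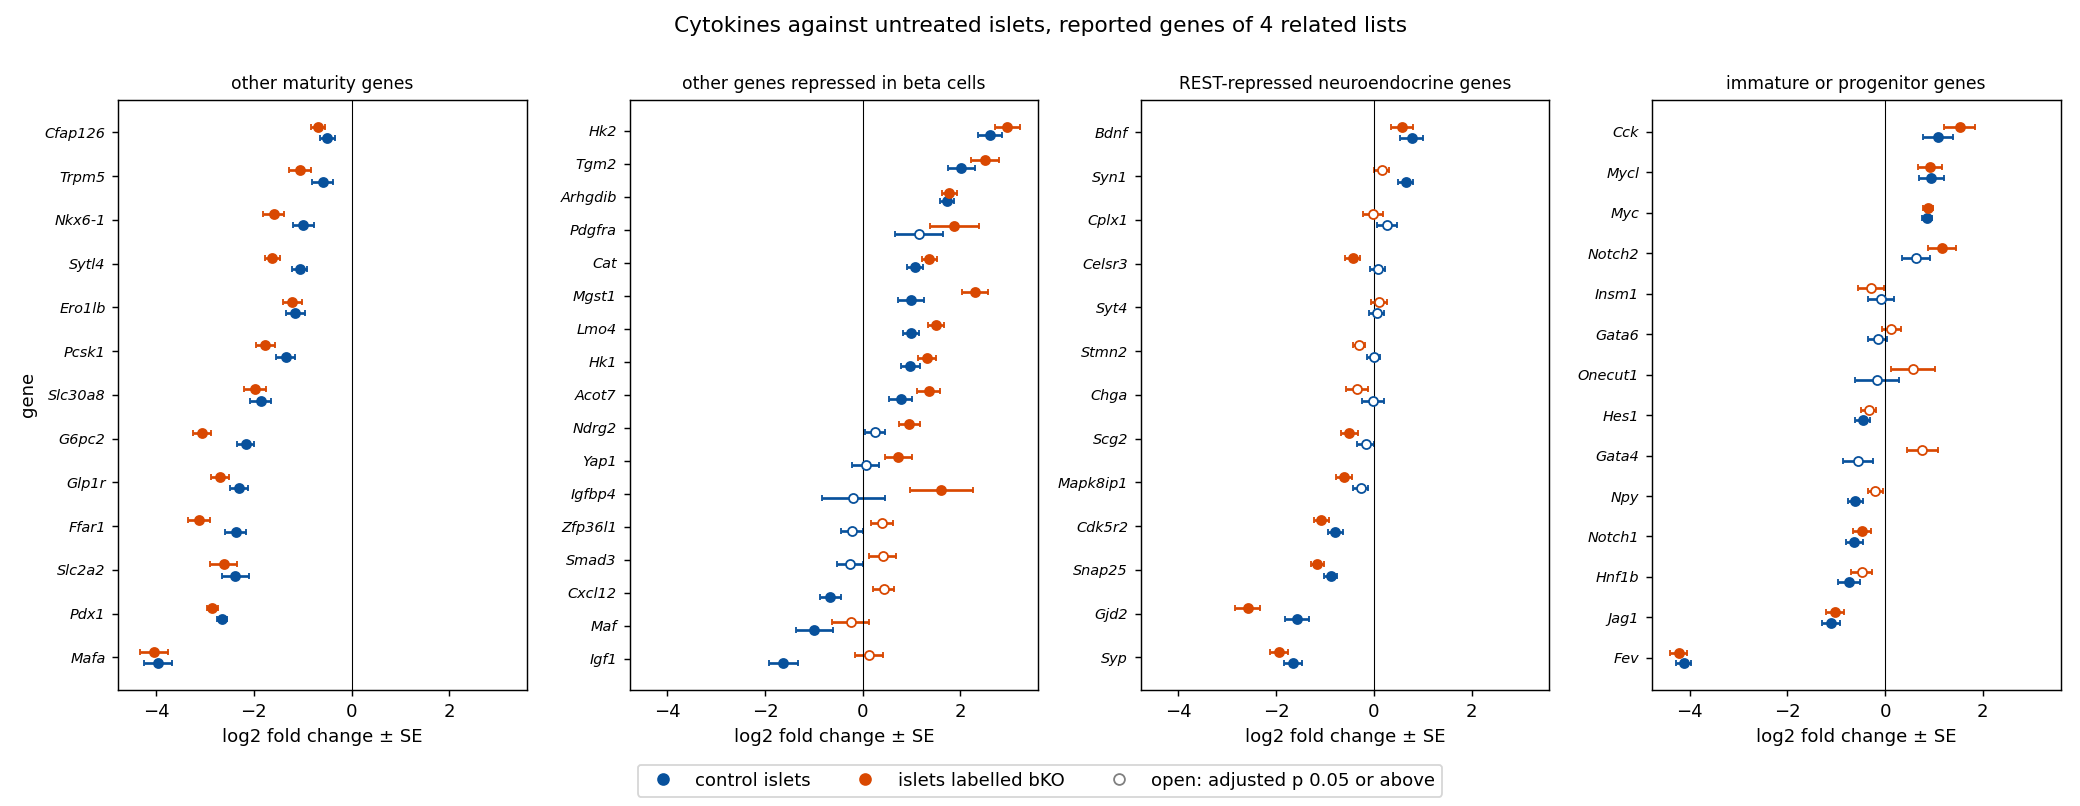
Log2 fold change with cytokines, with SE, of the genes of 4 related lists that are reported here, in control islets (blue) and in islets labelled bKO (orange). Filled points passed the adjusted p of 0.05; the maturity genes drawn lie to the left of 0, most other genes repressed in beta cells to the right, and the progenitor genes on both sides.

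Ldha encodes the muscle-type subunit of lactate dehydrogenase, which turns pyruvate into lactate, and Slc16a1 encodes the carrier that takes both across the plasma membrane. Ldha lies on chromosome 7, from 46841475 to 46855627 on the plus strand, and Slc16a1 on chromosome 3, from 104638668 to 104658462 on the plus strand. Ldha stood at 115.1, 172.3 and 164.1 CPM in untreated control islets and at 391.5, 230.2 and 270.7 in treated ones. Islets labelled bKO held 150.2, 136.3 and 108.0 untreated, and 294.5, 559.0 and 348.8 after cytokines. Every treated library lay above every untreated library, and the treated genotypes overlapped. Ldha rose by 0.98 log2 units in control islets (SE 0.261, adjusted p = 0.00655, edgeR) and by 1.61, or 3.05-fold, in islets labelled bKO (SE 0.265, adjusted p = 0.000261).

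Slc16a1 stood at 6.64, 6.30 and 7.09 CPM in untreated control islets and at 13.8, 9.33 and 13.5 after cytokines. In islets labelled bKO it stood at 6.50, 6.46 and 6.93 untreated and at 15.0, 34.5 and 13.6 after cytokines. The untreated libraries of both genotypes lay within 1 CPM of each other, all treated libraries lay above them, and treated bKO library 2, at 34.5 CPM, lay far above the next highest library at 15.0. Slc16a1 rose by 0.87 log2 units in control islets (SE 0.296, adjusted p = 0.0242, edgeR) and by 1.67, or 3.17-fold, in islets labelled bKO (SE 0.3, adjusted p = 0.000501). The call in control islets was lost with library totals in place of TMM (0.64, adjusted p = 0.0936), with limma-voom (0.80, 0.0526), and without untreated control library 1 or 2 or treated control library 1 or 3 (0.77 to 0.86, adjusted p from 0.0614 to 0.0743). Between treated genotypes Slc16a1 was 0.79 log2 units higher under the bKO label (SE 0.292, adjusted p = 0.217), and 0.08 (SE 0.104, adjusted p = 0.804) without treated bKO library 2 and treated control library 2. Without these libraries Slc16a1 rose by 1.08 in control islets and by 1.17 in islets labelled bKO, and Ldha by 1.19 and 1.35.

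The windows before Slc16a1 and Ldha are shown because both genes rose and each has a start whose window holds the core hypoxia response motif ACGTG, which hypoxia-inducible factors bind. The windows lie at chr3:104638414-104638663 and, for the first of the 2 RefSeq starts of Ldha, at chr7:46845554-46845803, both on the plus strand (GRCm38.p6). The motif, searched on both strands, is in 16.6% of all RefSeq windows of this length. It matches 2 times in Slc16a1 and 5 times in Ldha, where CACGTG counts once on each strand and is also an E-box CANNTG. The window of the other Ldha start, at chr7:46846832-46847081, holds 0 matches. Capitals mark the matches.
Slc16a1: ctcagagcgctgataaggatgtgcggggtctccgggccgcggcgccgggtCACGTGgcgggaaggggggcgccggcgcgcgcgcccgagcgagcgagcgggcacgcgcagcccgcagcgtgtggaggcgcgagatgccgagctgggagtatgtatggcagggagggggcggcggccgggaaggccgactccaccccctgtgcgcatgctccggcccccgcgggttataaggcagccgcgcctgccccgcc
Ldha: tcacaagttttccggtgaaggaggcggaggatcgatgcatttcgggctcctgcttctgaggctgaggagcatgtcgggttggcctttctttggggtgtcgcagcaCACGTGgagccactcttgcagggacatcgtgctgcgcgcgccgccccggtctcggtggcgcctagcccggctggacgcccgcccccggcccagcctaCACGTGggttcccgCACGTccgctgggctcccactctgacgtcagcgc

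Among the 7 members with a RefSeq window (Ucn3, Neurog3, Gast, Slc16a1, Ldha, Cd81 and Oat), ACGTG was found in these 2 alone. Several motifs were searched, and whether any factor binds at these matches or acts on these genes was not tested. The interferon gamma-activated site TTCNNNGAA (7.02% of all windows) and the NF-kB motif GGGANTTCC (1.43%), bound by factors that act below the 3 cytokines, had no match in the windows of these 7 genes. That says only that these letters are not within the 250 bases. Aldh1a3, Sox9 and Rest were not in the table of promoters.

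The other genes of lactate and pyruvate handling went both ways. Of 14 tested, 5 rose and 4 fell in control islets, and 4 rose and 4 fell in islets labelled bKO. Without treated bKO library 2 alone, 5 rose and 3 fell in islets labelled bKO. Over all genes, 26.8% rose and 33.9% fell in control islets, and 28.8% rose and 33.6% fell in islets labelled bKO. Slc16a3, the lactate exporter MCT4, rose from 26.9 to 77.1 CPM in control islets (1.52 log2 units, SE 0.326) and from 22.1 to 95.3 in islets labelled bKO (2.11, SE 0.333). Ldhb, the heart-type lactate dehydrogenase subunit, was at 10.2 and 10.7 CPM in control islets (0.08 log2 units, adjusted p = 0.643, edgeR) and fell by 0.42 in islets labelled bKO (adjusted p = 0.0201). Slc16a7, the carrier MCT2, was at 1.86 to 2.58 CPM in all 4 groups and did not pass in either genotype (-0.48 and 0.22 log2 units). Mpc1, a subunit of the mitochondrial pyruvate carrier, rose by 1.07 and 0.97, while its partner Mpc2, named after its values were seen, did not pass (0.06 and 0.12). Pcx, the pyruvate carboxylase that refills the citric acid cycle, fell by 1.11 and 1.25. Pdk4 and Pdk2, kinases that hold back pyruvate dehydrogenase, fell by 2.64 and 1.61 in control islets and by 1.90 and 1.39 in islets labelled bKO.

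Targets of hypoxia-inducible factors, with Hif1a itself, formed a list of their own. Of 9 tested, 5 rose and 2 fell in control islets (median 0.98 log2 units). In islets labelled bKO 7 rose and 1 fell (median 1.40), and 6 rose and 1 fell without treated bKO library 2 alone. Over all genes, 26.8% rose and 33.9% fell in control islets (median -0.10). The shares under the bKO label were 28.8% and 33.6% (median -0.06). Slc2a1, the ubiquitous glucose carrier GLUT1, rose from 70.5 to 399.9 CPM in control islets (2.504 log2 units, SE 0.156) and from 64.5 to 498.7 in islets labelled bKO (2.95, SE 0.159). Pfkfb3, which speeds glycolysis, rose from 43.8 to 213.8 CPM and from 41.0 to 231.3. Egln3, an oxygen sensor, rose by 2.70 and 4.00 log2 units and Hif1a itself by 0.98 and 1.40. Vegfa, the growth factor for vessels, fell by 0.35 and 0.42, and Pdk1, also among the 14 genes above, fell by 0.72 in control islets, with -0.12 (adjusted p = 0.509, edgeR) in islets labelled bKO. Vegfa and Pdk1 were named after their values were seen.

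Other genes that mature beta cells keep low were tested beside them: 8 of 17 rose and 3 fell in control islets, and 12 rose and none fell in islets labelled bKO. The medians were 0.78 and 1.35 log2 units, against -0.10 and -0.06 over all genes. The shares of all genes that rose and fell were 26.8% and 33.9% in control islets, and 28.8% and 33.6% in islets labelled bKO. Hk2, a high-affinity hexokinase, rose from 14.4 to 88.1 CPM in control islets (2.61 log2 units, SE 0.247) and from 14.0 to 109.0 in islets labelled bKO (2.96, SE 0.251). Tgm2, a transglutaminase, rose by 2.02 and 2.51, Arhgdib, a GTPase regulator of blood cells, by 1.73 and 1.77, and catalase (Cat) by 1.07 and 1.37. The genes that fell in control islets were Igf1 (-1.62), Cxcl12 (-0.66) and Maf (-0.99), named after their values were seen. Their changes in islets labelled bKO were 0.13, 0.43 and -0.25, none past the threshold. None of the 17 passed between treated genotypes in edgeR. Without treated bKO library 2 and treated control library 2, 9 rose and 2 fell in control islets and 11 rose and 1 fell in islets labelled bKO, with medians of 1.00 and 1.06. The summed level of 8 stellate cell markers lay at 1934 to 2944 CPM in the untreated libraries, at 1537 to 4346 in treated control islets and at 3108 to 8141 in treated islets labelled bKO. Of these 8 markers 1 rose and 1 fell in control islets, and 4 rose and 1 fell in islets labelled bKO; without both libraries, 5 rose and 1 fell, and 4 rose and 3 fell. Their part in the list's values was not tested.

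Rest encodes the zinc finger repressor that silences neuronal genes in non-neuronal cells; beta cells keep it low and express many of its targets. It lies on chromosome 5, from 77265491 to 77286432 on the plus strand. Untreated control islets held 17.7, 17.7 and 20.7 CPM of Rest, and treated ones 31.4, 19.0 and 27.6. Untreated islets labelled bKO held 19.3, 18.6 and 18.8, and treated ones 25.2, 52.6 and 26.6. The treated bKO libraries all lay above the untreated ones, while treated control library 2 lay within the untreated range. Rest rose by 0.88 log2 units in islets labelled bKO (SE 0.256, adjusted p = 0.0103, edgeR), and its change of 0.47 in control islets did not pass (SE 0.255, adjusted p = 0.129).

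The Rest values turned on the libraries numbered 2. Without treated bKO library 2 alone, the change in islets labelled bKO was 0.52 (adjusted p = 0.0107, edgeR) and that in control islets 0.54 (adjusted p = 0.00425), since the shared estimate of the spread was smaller. Without treated control library 2 as well, Rest rose by 0.71 in control islets (SE 0.089, adjusted p = 3.19e-05) and by 0.52 in islets labelled bKO (SE 0.09, adjusted p = 0.000373). These libraries were left out because they differed, so that the smaller SE follows in part from the choice. Rest in control islets also passed in DESeq2 (0.56, adjusted p = 0.0421) and with the compared groups alone (0.53, adjusted p = 0.0219). With library totals, its change in islets labelled bKO was 0.67 (adjusted p = 0.0504). Between treated genotypes Rest differed by 0.42 (SE 0.254, adjusted p = 0.382), and by -0.18 (SE 0.0989, adjusted p = 0.468) without both libraries.

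Known neuroendocrine targets of REST went both ways. Of 13 tested, 2 rose and 4 fell in control islets, a share of falling genes near the 33.9% of all genes, with a median of -0.02 log2 units. The counts under the bKO label were 1 and 7, with a median of -0.43, where 33.6% of all genes fell. Without treated bKO library 2 and treated control library 2, 2 rose and 5 fell in control islets (median -0.12), and 3 rose and 5 fell in islets labelled bKO (median -0.24). Syp, the synaptic vesicle protein synaptophysin, fell from 243.3 to 76.9 CPM in control islets (-1.66 log2 units, SE 0.182) and from 273.0 to 70.7 in islets labelled bKO (-1.95, SE 0.184). Gjd2, the connexin that couples beta cells, fell by 1.57 and 2.58 and Cdk5r2 by 0.79 and 1.08. Snap25, a component of the exocytosis machinery, fell from 175.3 to 95.0 CPM and from 160.9 to 72.2. Chga, chromogranin A of secretory granules, did not pass (-0.02 and -0.35). Bdnf rose in both genotypes (0.77 and 0.57), and Syn1 in control islets (0.65), with 0.16 in islets labelled bKO. Of 7 REST cofactors 6 fell in each genotype, among them Rcor2 by 1.36 and 1.06 and Hdac2 by 0.43 and 0.38. The seventh, the histone methyltransferase Ehmt2, rose by 0.38 in control islets and did not pass in islets labelled bKO (0.17). The medians of the 7 cofactors were -0.33 and -0.29 log2 units, against -0.10 and -0.06 over all genes. The counts that fell in control islets and in islets labelled bKO were 5 and 4 with DESeq2 size factors, and 6 and 6 with library totals. Chga, Bdnf, Syn1 and Ehmt2 were named after their values were seen.

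**Figure D3:**
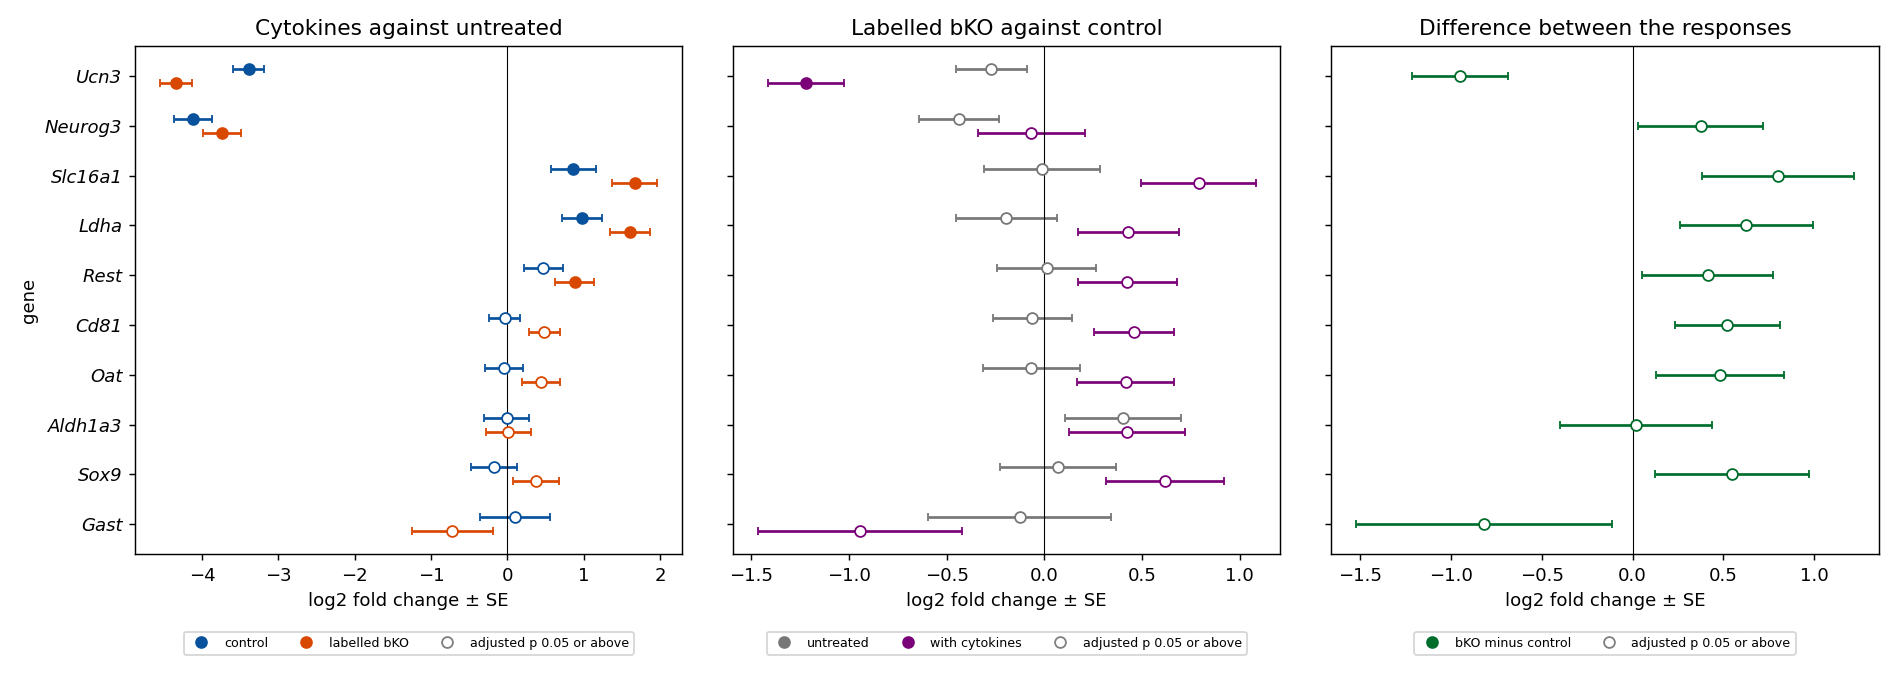
Log2 fold change with SE of each of the 10 genes: cytokines against untreated islets in each genotype (left), labelled bKO against control in each treatment (middle), and the difference between the 2 responses (right). Filled points passed the adjusted p of 0.05 in edgeR; between genotypes only Ucn3 with cytokines is filled, at -1.22, and on the right none is.

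Aldh1a3, Sox9, Cd81, Oat and Gast did not pass the test for cytokines in either genotype. Aldh1a3 is a retinaldehyde dehydrogenase that makes retinoic acid and is used as a marker of failing, dedifferentiated beta cells. It lies on chromosome 7, from 66390890 to 66427517 on the minus strand. Untreated control islets held 24.6, 23.5 and 26.8 CPM of Aldh1a3, and treated ones 35.8, 14.9 and 24.0. Untreated islets labelled bKO held 36.8, 31.6 and 30.8, and treated ones 19.9, 41.4 and 38.5. The 3 untreated bKO libraries lay above the 3 untreated control libraries, and the treated libraries of both genotypes were widely spread and overlapped. The change with cytokines was -0.01 log2 units in control islets (SE 0.296) and 0.01 in islets labelled bKO (SE 0.296). The untreated genotypes differed by 0.40 (SE 0.296, adjusted p = 1, edgeR).

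Its paralogs and the rest of the retinoic acid pathway gave a mixed picture. Of 14 tested genes, 1 rose and 2 fell in control islets, and 5 rose and 3 fell in islets labelled bKO. With both libraries numbered 2 left out, 5 rose and 2 fell in control islets, and 4 rose and 3 fell in islets labelled bKO. With all libraries, 26.8% of all genes rose and 33.9% fell in control islets, and 28.8% and 33.6% in islets labelled bKO. Aldh1a1, a paralog with the same reaction, went from 4.98 to 6.69 CPM in control islets (0.42 log2 units, adjusted p = 0.309, edgeR) and rose from 3.38 to 13.5 in islets labelled bKO (2.00, SE 0.358). Aldh1a2 went from 6.60 to 14.2 CPM in control islets (1.09, adjusted p = 0.0619) and rose from 6.21 to 15.0 in islets labelled bKO (1.28, adjusted p = 0.0335). Cyp26b1, which degrades retinoic acid, rose by 1.79 and 2.14, whereas its relative Cyp26a1 fell by 1.74 and 1.44 from below 2 CPM. Crabp1, which binds retinoic acid in the cytosol, fell by 3.33 and 1.74. No gene of the pathway passed between genotypes in edgeR, with or without cytokines.

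Sox9 is the transcription factor of pancreatic progenitors, and in the adult pancreas it marks duct cells. It lies on chromosome 11, from 112782224 to 112787760 on the plus strand. Control islets held 35.4, 41.6 and 43.7 CPM of Sox9 untreated, and 39.1, 20.7 and 47.5 after cytokines. The islets labelled bKO held 45.2, 39.0 and 42.5 untreated, and 34.3, 78.3 and 51.6 after cytokines. The treated libraries spread from below to above all untreated ones. The change was -0.17 log2 units in control islets and 0.38 in islets labelled bKO (adjusted p = 0.293, edgeR). Summed duct cell markers lay at 2792 to 3643 CPM in the untreated libraries. With cytokines they lay at 3922, 3076 and 4686 CPM in control islets and at 3767, 8321 and 4974 in islets labelled bKO. Sox9 was lowest and highest in the same treated libraries as this sum. Of the 10 duct markers 4 rose and 5 fell in control islets, and 4 rose and none fell in islets labelled bKO, and none was at 0 in any library. Without both libraries numbered 2 the duct marker counts were 4 and 4 in control islets, and 4 and 3 in islets labelled bKO. The part of duct cells in the Sox9 values was not tested.

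Cd81 is a tetraspanin of the plasma membrane that has been described on immature and stressed beta cells. It lies on chromosome 7, from 143052739 to 143067934 on the plus strand, and shares 104 exonic bases with R74862 on the other strand. Cd81 stood at 142.6, 139.8 and 146.0 CPM in untreated and 149.9, 113.6 and 154.4 in treated control islets. It stood at 147.2, 132.9 and 130.5 in untreated and 140.3, 273.5 and 160.8 in treated islets labelled bKO. Treated bKO library 2 was the highest by a wide margin, and treated control library 2 the lowest. The change was -0.04 log2 units in control islets and 0.48 in islets labelled bKO (SE 0.205, adjusted p = 0.0569, edgeR). The latter passed in DESeq2 (0.55, adjusted p = 0.0126), without treated bKO library 1 (0.67, adjusted p = 0.0108) or 3 (0.59, adjusted p = 0.0398), and, at 0.20, without both libraries numbered 2 (adjusted p = 0.0298).

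Of 12 other tetraspanins and partners tested, 5 rose and 1 fell in control islets, and 7 rose and 1 fell in islets labelled bKO. Without both libraries numbered 2, 8 rose and 1 fell in each genotype. With all libraries, 26.8% of all genes rose and 33.9% fell in control islets, and 28.8% and 33.6% in islets labelled bKO. Cd82 rose from 58.1 to 325.9 CPM in control islets (2.49 log2 units, SE 0.108) and from 64.0 to 303.3 in islets labelled bKO (2.25, SE 0.107). Cd9 rose by 0.97 and 1.61, Cd63, a tetraspanin of late endosomes and granules, by 0.75 and 0.55, and Cd53, a tetraspanin of blood cells, by 1.49 and 1.81. Tspan8, named after its values were seen, fell by 1.24 and 0.90. Summed macrophage markers rose beside Cd53, from 155.6 to 217.0 CPM over the untreated libraries to 451.3 to 604.9 over the treated ones, with 7 of 8 markers higher in each genotype and none at 0. Their part in these values was not tested.

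Oat encodes ornithine aminotransferase, a mitochondrial enzyme between ornithine and proline or glutamate. It lies on chromosome 7, from 132557478 to 132576398 on the minus strand. Before cytokines, control islets held 27.3, 29.3 and 33.9 CPM of Oat, and islets labelled bKO 28.7, 28.2 and 29.5. After cytokines, control islets held 35.3, 21.4 and 31.5, and islets labelled bKO 26.7, 57.9 and 32.9. The groups overlapped, apart from the high value of treated bKO library 2. The change was -0.04 log2 units in control islets (SE 0.249, adjusted p = 0.905, edgeR) and 0.44 in islets labelled bKO (SE 0.25, adjusted p = 0.141). The latter passed without treated bKO library 1 (0.66, adjusted p = 0.0304) and was 0.11 without both libraries numbered 2. Around Oat, 3 of 8 genes of ornithine and proline metabolism rose and 3 fell in control islets. In islets labelled bKO 3 rose and 2 fell, and 4 rose and 3 fell without treated bKO library 2 alone. Over all genes, 26.8% rose and 33.9% fell in control islets, and 28.8% rose and 33.6% fell in islets labelled bKO. Arg2, the mitochondrial arginase that makes ornithine, rose from 0.133 to 2.39 CPM in control islets (4.09 log2 units, SE 0.345) and from 0.162 to 3.65 in islets labelled bKO (4.49, SE 0.342). Ass1, which rebuilds arginine from citrulline, rose by 2.21 and 2.81, and Odc1, which turns ornithine into putrescine, by 1.06 and 0.86. Pycr1, which makes proline, fell by 0.49 and 0.61.

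Gast encodes gastrin, a peptide of the fetal pancreas that adult islets hardly make. It lies on chromosome 11, from 100334407 to 100336996 on the plus strand. Its 2 to 29 counts per library gave 0.235, 0.201 and 0.227 CPM in untreated control islets, and 0.232, 0.299 and 0.161 after cytokines. Islets labelled bKO held 0.214, 0.102 and 0.294 CPM untreated, and 0.165, 0.0363 and 0.179 after cytokines. All groups overlapped, and at this depth no difference was detectable (0.10 log2 units with SE 0.458 in control islets, -0.72 with SE 0.533 in islets labelled bKO). Of the receptors for these peptides, Cckbr, which binds gastrin, was at 0.223 to 0.471 CPM over the group means and Crhr2, which binds urocortin 3, at 0.318 to 0.593. In control islets Cckbr fell by 1.05 log2 units (adjusted p = 0.0487, edgeR) and Crhr2 by 0.93 (adjusted p = 0.0135), and neither passed in islets labelled bKO (0.61 and -0.47). Crhr1, the other urocortin receptor gene tested, did not pass (0.42 and 0.36). Sst, the somatostatin of the delta cells on which urocortin 3 acts, fell from 1863 to 596.3 CPM in control islets and from 1848 to 484.1 in islets labelled bKO (-1.64 and -1.93 log2 units). Of the 4 delta cell markers, 4 fell in control islets and 3 in islets labelled bKO, with none at 0, and the part of fewer delta cells was not tested.

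Between genotypes, the 10 genes gave 0 calls in untreated islets and 1 with cytokines in edgeR, the fall of Ucn3. Of all genes tested 0.0758% were called without cytokines, every one of them higher under the bKO label, and 0.232% with cytokines, 0.141% higher and 0.0909% lower. In untreated islets none of the 10 reached an unadjusted p of 0.05 either, and DESeq2 and limma-voom also called none. Ucn3 and Neurog3 were lower and Aldh1a3 higher under the bKO label without overlap of the libraries. Over all genes, 16.2% had groups without overlap, 7.94% lower and 8.24% higher. The summed level of 10 acinar cell markers was 3784 to 5913 CPM in untreated control islets and 1710 to 2781 in untreated islets labelled bKO. Of the 9 acinar markers tested, 0 were called between untreated genotypes. The part of acinar cells in the values of the 10 genes was not tested. With cytokines Ucn3 alone of the 10 had groups without overlap, against 17.7% of all genes, 10.8% lower and 6.94% higher. With cytokines 3 of the 10 genes had an unadjusted p under 0.05: Ucn3, Slc16a1 and Cd81. For the difference between the responses edgeR called 0 of the 10 genes and 0% of all genes, with 1 of the 10 at an unadjusted p under 0.05, Ucn3. DESeq2 called 186 genes there, none of them among the 10.

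Apart from Ucn3 and Neurog3, the libraries numbered 2 were opposite extremes of the treated groups. For the genes with this pattern, the difference between treated genotypes was smaller without them. Ucn3 was lowest in library 2 of both treated groups, at 18.6 CPM in control islets and 6.23 in islets labelled bKO. Its difference between treated genotypes went from -1.22 to -1.08 log2 units without both. For 7 genes (Aldh1a3, Sox9, Slc16a1, Ldha, Rest, Cd81 and Oat), treated control library 2 was the lowest of its group and treated bKO library 2 the highest of its group and of all 12 libraries. The share of all genes with this pattern was not counted, so the pattern cannot be called particular to these genes. Against the mean of the other 2 libraries of its group, treated bKO library 2 was higher by 1.27 log2 units for Slc16a1, 1.02 for Rest, 0.97 for Oat, 0.90 for Sox9, 0.86 for Cd81, 0.80 for Ldha and 0.58 for Aldh1a3. Treated control library 2 deviated by -1.06 for Sox9, -0.98 for Aldh1a3, -0.64 for Oat, -0.63 for Rest, -0.55 for Slc16a1, -0.50 for Ldha and -0.42 for Cd81. With all libraries these 7 genes were 0.42 to 0.79 log2 units higher in treated islets labelled bKO than in treated controls, with none past the threshold. Without both libraries the differences were 0.08 for Slc16a1, -0.01 for Sox9, -0.01 for Cd81, -0.04 for Ldha, -0.04 for Aldh1a3, -0.16 for Oat and -0.18 for Rest. These 7 genes were picked because they were extreme in these 2 libraries. Leaving both out had to lower their differences, so the lower values are no independent result. Gast showed the pattern with the sign turned, on few counts: treated bKO library 2 was the lowest of all 12 libraries (-2.02 log2 units from the others of its group) and treated control library 2 the highest (0.61). Its difference between treated genotypes was -0.94 (SE 0.523, adjusted p = 0.351, edgeR) with all libraries and -0.20 without both, a smaller size that was fixed in the same way. The cytokine responses of Slc16a1, Ldha and Rest kept their direction in both genotypes without these libraries. In the same 2 libraries, the summed stellate cell markers were at 1537 CPM (treated control library 2, against 4346 and 3169 in its group) and 8141 CPM (treated bKO library 2, against 3291 and 3108). The summed beta cell markers ran the other way, at 177400 CPM in treated control library 2, the highest of the 12, and at 89990 in treated bKO library 2, the lowest. None of the 8 stellate markers was at 0 in any library. The part of these cell types in the values of the 7 genes was not tested.

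**Figure D4:**
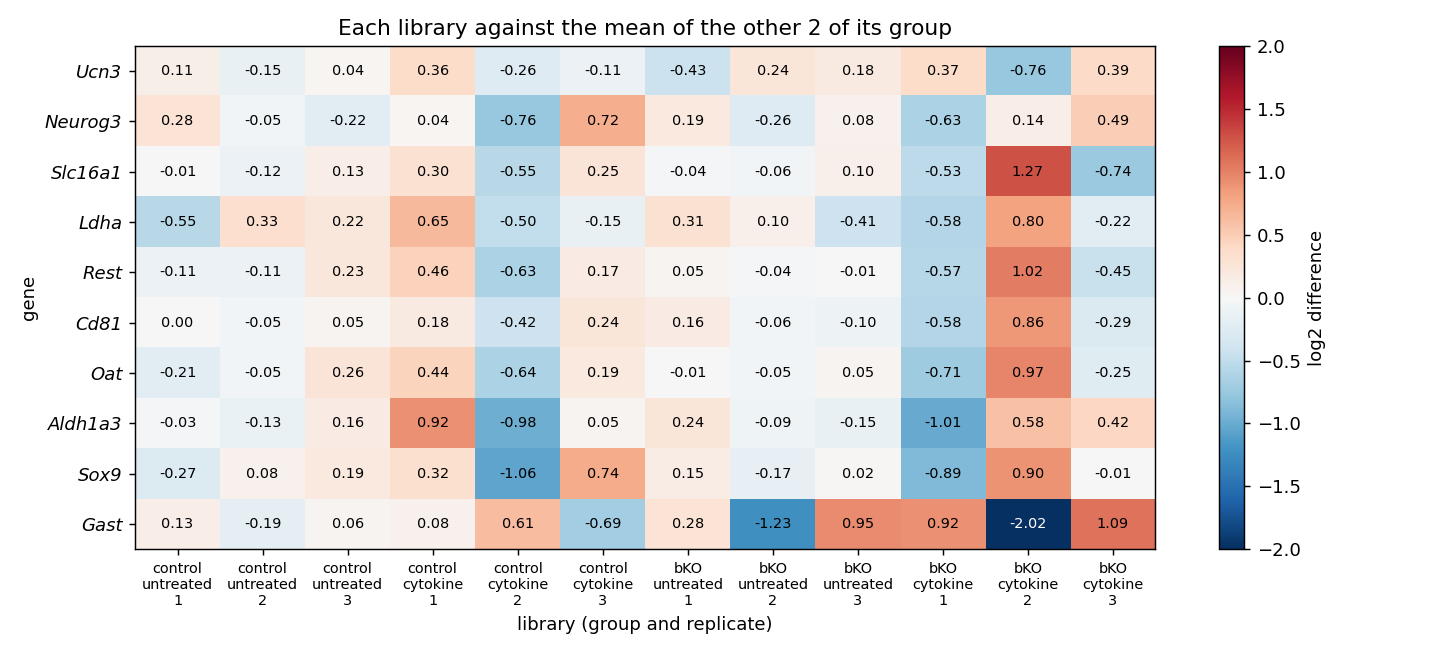
Log2 difference of each library from the mean of the other 2 libraries of its group, for the 10 genes. Red marks a library above its group and blue below; treated bKO library 2 is red and treated control library 2 blue for Aldh1a3, Sox9, Slc16a1, Ldha, Rest, Cd81 and Oat, Gast has the colours turned, at -2.02 and 0.61, and Ucn3 is low in both, at -0.76 and -0.26.

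The genes most like each member were found by the root-mean-square difference of log2 CPM, each gene centred on its mean, over the 12 libraries and 13316 genes of at least 1 CPM. The 3 closest to Ucn3 were Hs3st6 (0.292 log2 units), Zkscan16 (0.293) and Mafa (0.298). Those closest to Neurog3 were Dcx (0.218), Oxtr (0.237) and Spon2 (0.266), and those closest to Ldha were P4ha2 (0.101), Fam162a (0.143) and Smim3 (0.152). Slc16a1 was nearest to Ddr2 (0.157), Gk and Anxa1, Sox9 to Smad3 (0.105), Gprc5a and Ramp3, and Aldh1a3 to Chst14 (0.193), Smpd5 and Gprc5a. Rest was nearest to H6pd (0.062), Piezo1 and Klhl5, Cd81 to Sestd1 (0.069), Lrp5 and Aplp2, and Oat to Afap1 (0.058), Ehd2 and Tspan9. Gast, with its few counts, had no gene nearer than 0.442 (Chga). The genes share the 12 libraries, whose differences in depth and cell content enter every such distance.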

How the data were processed

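Per the submitters' processing notes, the authors' tools were STAR 2.5.2a, featureCounts 1.6.2, cutadapt 1.16, FastQC 0.11.7 and DESeq2 1.30.0, on GRCm38. The annotation release and the strand setting are not stated. The authors deposited raw counts per gene, and 0 columns of counts were left unused. Genes were kept with filterByExpr, scaled by TMM and tested in edgeR 4.0.16 (R 4.3.3) with the quasi-likelihood F test and 1 coefficient per group. All 12 libraries entered the fit, and p-values were adjusted by Benjamini and Hochberg's method, with calls at 0.05. The test was checked on simulated data. Libraries of a group differed beyond sampling noise, with a chi-square per degree of freedom of 15 or more, so none was a copy. Lengths and positions come from GENCODE M21, and promoters from RefSeq (GRCm38.p6). The members and lists were chosen with earlier results of these data known. Named genes are the members, up to 4 genes per list and comparison with the smallest adjusted p, members' paralogs and receptors, and the 3 genes most like each member. Some genes of the lists are not reported here. Alternatives used DESeq2 1.42.0 and limma 3.58.1.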

Additional observations from a re-analysis of the deposited data

How the results depend on the processing

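The 10 called changes were refitted 220 times in all; 201 refits kept direction and call, 19 lost the call, and 0 changed sign. The fall of Ucn3 and Neurog3 and the rise of Ldha with cytokines passed in all 22 refits in each genotype, as did the rise of Slc16a1 in islets labelled bKO. With library totals in place of TMM the median of all genes moved to -0.33 in control islets and -0.29 in islets labelled bKO, and the medians of lactate and pyruvate handling turned to -0.21 and -0.10. Between treated genotypes the number of members called was 0 with the compared groups alone, 0 with the replicate block, and 0 to 1 when 1 library was left out. The number of all genes called there was 46 in the fit reported, 0 with the compared groups alone, 7 with the block, 190 without a filter, 705 in DESeq2 and 4 to 444 with 1 library left out. Between untreated genotypes it was 15 in the fit reported, 128 in DESeq2, 121 with the compared groups alone and 115 without both libraries numbered 2.

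Whether the replicate numbers pair the samples could not be told. The deviations of same-numbered libraries correlated at -0.2, 0.025 and 0.005 in control islets and at -0.104, 0.041 and 0.133 in islets labelled bKO. Those of differently numbered libraries ranged from -0.296 to 0.333 and from -0.135 to 0.084. With 3 libraries per group, such values can neither show nor exclude a shared mouse. For cytokine changes the replicate block joined same-numbered libraries of 1 genotype. Between genotypes it joined same-numbered libraries of both genotypes, which come from different mice, so it does not account for shared mice there. With the replicate block the Ucn3 difference between treated genotypes was -1.231 (adjusted p = 0.101, edgeR). The change of Aldh1a3 in islets labelled bKO was -0.048, and no other call on a member changed. G6pc2 and Npy lost their calls there too (adjusted p = 0.101 for each).

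All changes of sign, 73 in 861 refits, were in comparisons in which the gene had not passed the threshold, and the cause was not tested. With cytokines in control islets, Aldh1a3 turned to 0.078 with DESeq2 size factors, 0.08 in DESeq2, and 0.052 both with TMM without acinar and abundant genes and with the compared groups alone. Under the same 4 settings Cd81 turned to 0.051, 0.052, 0.024 and 0.024, and Oat to 0.049, 0.05, 0.022 and 0.022. Gast turned to -0.137 with library totals. In islets labelled bKO, Aldh1a3 turned to -0.211 with library totals, -0.017 without a filter and -0.04 in limma-voom. Between untreated genotypes Slc16a1 turned to 0.009 with library totals and Rest to -0.008 without a filter. Between treated genotypes Neurog3 turned to 0.008 in limma-voom. The difference in response of Aldh1a3 turned to -0.001 with DESeq2 size factors and -0.004 in DESeq2.

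Without both treated libraries numbered 2, control islets gave 0.314 for Aldh1a3, 0.156 for Sox9, -0.106 for Gast, 0.143 for Cd81 and 0.199 for Oat, and islets labelled bKO gave -0.12 for Aldh1a3. Between treated genotypes the values were -0.035 for Aldh1a3, -0.006 for Sox9, -0.038 for Ldha, -0.184 for Rest, -0.009 for Cd81 and -0.16 for Oat. The differences in response were -0.434 for Aldh1a3, -0.073 for Sox9, -0.191 for Rest and -0.09 for Oat.

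With 1 library left out, the cytokine change in control islets ranged from -0.367 to 0.259 for Aldh1a3, -0.431 to 0.106 for Sox9, -0.16 to 0.275 for Gast, -0.116 to 0.091 for Cd81 and -0.191 to 0.147 for Oat. That of Aldh1a3 in islets labelled bKO ranged from -0.121 to 0.273. Untreated genotypes differed by -0.014 to 0.134 for Sox9, -0.485 to 0.198 for Gast, -0.05 to 0.036 for Slc16a1, -0.028 to 0.091 for Rest and -0.133 to 0.027 for Oat. Treated genotypes differed by -0.318 to 0.19 for Neurog3 and -0.014 to 0.61 for Rest. The difference in response was -0.25 to 0.376 for Aldh1a3 and -0.021 to 0.599 for Rest. Gast gave no value under the filter of 1 CPM, nor in some comparisons with the compared groups alone or in DESeq2, and its 2 to 29 counts limit what could be seen.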
